A study of Mus musculus with 18 samples.

Results

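The 6 mouse genes described here are Opn3, Bex1, Megf10, Slc25a13, Cyp2c38 and Plet1os. They were chosen by their measured signals in these same hearts, because the difference between hearts before pressure overload and hearts after 4 weeks of it was undone or overshot in hearts in which the kinase Akt had been switched on. Each is represented by 1 probe set, so that they make up 6 of 45265 probe sets on the arrays and 6 of 12835 genes tested. All 6 passed the filter on low signals, which used the mean over all 9 hearts. Megf10 passed narrowly, with a mean signal of 51.1 at percentile 42.1 of its chip. It passed through the hearts before AAC and with Akt on, as its mean signal at 4 weeks was 13.6. Because the measured values chose these genes, their own values are given as a description, without a test.

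The hearts came from male mice that carried both the Tet-myrAkt1 transgene, which encodes a constitutively active Akt1, and the αMHC-tTA transgene, whose promoter directs expression to heart muscle cells. All 9 hearts had this genotype, controls included, and no mouse without the transgenes or with a sham operation was among the samples. AAC is the operation that produced the overload. The groups were 3 hearts before AAC with a labelled age of 8 weeks, 3 hearts 4 weeks after AAC with a labelled age of 12 weeks, and 3 hearts 6 weeks after AAC with Akt on. For the last group the sample titles give 3 weeks of Akt and the descriptions 2 weeks, and the labelled age is again 12 weeks. No group had 6 weeks of overload without Akt, so Akt and the later time cannot be told apart, nor can AAC and the passage from 8 to 12 weeks of age. The labels do not say whether a sample is 1 animal or a pool, so the p-values below measure the spread between these samples. For 4-week replicate 3 the title and the description disagree, since the latter ends in 1. Its deposited signals equalled those of 4-week replicate 1 in 0.256% of probe sets on chip 430A and 0.0842% on chip 430B, and both were kept as separate hearts.

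In the overloaded heart, the wall meets a raised pressure and its muscle cells enlarge, change their use of fuels and re-express genes of the fetal program. Akt is a kinase of the insulin and growth factor pathway that promotes cell growth and survival, and sustained activity in heart muscle enlarges the organ. The 6 genes belong to no common pathway. Slc25a13 encodes citrin, a carrier of the inner mitochondrial membrane that exchanges aspartate for glutamate and works in the malate-aspartate shuttle, and Cyp2c38 encodes a cytochrome P450 of the subfamily whose members include arachidonic acid epoxygenases. Opn3 encodes encephalopsin, an opsin found outside the eye in brain and other tissues, and Megf10 encodes an engulfment receptor with repeated EGF-like domains that is also made by muscle satellite cells. Bex1 encodes a small adaptor protein of neurons that is linked to the p75 neurotrophin receptor and that has also been studied in the failing heart. Plet1os is a non-coding RNA from the opposite strand of Plet1, a gene first described in placenta.

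The sequences around the start sites are shown because the genes fall into a group that was higher and a group that was lower at 4 weeks, and a reader may want to compare what lies upstream. They are RefSeq windows of build GRCm38.p6, 250 bases before to 50 bases after the start, and all read from the minus strand. The windows are chrX:136215464-136215763 for Bex1, chr6:6217124-6217423 for Slc25a13 and chr9:50504756-50505055 for Plet1os, the genes that were higher at 4 weeks. Those of the genes that were lower are chr1:175692583-175692882 for Opn3 and chr19:39463026-39463325 for Cyp2c38. Capitals mark matches, on either strand, to 7 short motifs. These are the TATA box TATAAA, the CCAAT box, the GC box GGGCGG, the E-box core CACGTG, the forkhead core GTAAACA, the cyclic AMP element core TGACG and the GATA-factor motif AGATAA.
Bex1: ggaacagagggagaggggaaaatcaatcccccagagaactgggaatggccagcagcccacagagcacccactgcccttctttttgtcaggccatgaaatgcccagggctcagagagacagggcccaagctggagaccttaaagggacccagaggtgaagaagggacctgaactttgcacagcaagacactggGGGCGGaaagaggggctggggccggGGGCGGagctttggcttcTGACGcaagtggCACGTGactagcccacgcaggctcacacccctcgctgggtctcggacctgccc
Slc25a13: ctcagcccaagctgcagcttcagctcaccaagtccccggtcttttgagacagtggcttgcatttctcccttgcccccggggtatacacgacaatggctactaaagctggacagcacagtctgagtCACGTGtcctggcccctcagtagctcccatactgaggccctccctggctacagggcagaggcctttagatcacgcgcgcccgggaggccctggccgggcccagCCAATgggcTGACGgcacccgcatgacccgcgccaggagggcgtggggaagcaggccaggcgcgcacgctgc
Plet1os: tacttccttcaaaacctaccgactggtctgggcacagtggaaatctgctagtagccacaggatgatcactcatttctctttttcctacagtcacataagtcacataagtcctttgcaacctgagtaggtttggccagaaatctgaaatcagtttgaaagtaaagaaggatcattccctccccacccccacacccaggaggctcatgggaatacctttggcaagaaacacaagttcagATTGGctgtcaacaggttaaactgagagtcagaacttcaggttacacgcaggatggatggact
Opn3: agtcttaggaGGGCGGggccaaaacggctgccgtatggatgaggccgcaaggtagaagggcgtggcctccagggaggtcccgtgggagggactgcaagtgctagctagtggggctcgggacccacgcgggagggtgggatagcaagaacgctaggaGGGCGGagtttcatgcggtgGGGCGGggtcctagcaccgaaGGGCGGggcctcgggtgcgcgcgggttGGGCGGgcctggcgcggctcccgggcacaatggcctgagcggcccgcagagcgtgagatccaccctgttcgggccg
Cyp2c38: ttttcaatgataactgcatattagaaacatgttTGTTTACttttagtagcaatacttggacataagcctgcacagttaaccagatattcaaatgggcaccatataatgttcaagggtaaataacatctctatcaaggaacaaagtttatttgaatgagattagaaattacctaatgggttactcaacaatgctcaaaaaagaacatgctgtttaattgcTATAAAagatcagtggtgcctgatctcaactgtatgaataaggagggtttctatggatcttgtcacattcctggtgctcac

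Bex1 and Slc25a13 each held 1 CACGTG, the core of an E-box, which 7.15% of 32841 RefSeq windows of this length hold, and each held 1 TGACG, which is in 20.8% of windows. The Opn3 window held GGGCGG at 5 positions and the Bex1 window at 2 positions, where 35.7% of windows hold at least 1. The window of Cyp2c38 held a TATAAA, present in 13.6% of windows, and 1 TGTTTAC, which is the forkhead core GTAAACA read on the other strand and is in 3.65% of windows. Slc25a13 and Plet1os held 1 CCAAT each, on opposite strands, against 37.4% of windows. No window held AGATAA, present in 11.2% of all. None of the 7 motifs was in each of the 3 windows of the genes higher at 4 weeks. The base composition differed widely, from 70% G and C with 28 CpG in Opn3 to 34.3% with 0 CpG in Cyp2c38, beside medians of 52.7% and 7 over all windows. A match is a string of letters in a window and says nothing of binding.

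The values are MAS5 signals, the brightness of a probe set on a linear scale, and differences are given on the scale of log2(signal + 32), with the standard error (SE) from the fit in limma. Folds are those of signal + 32, taken from these differences, and are not ratios of the signals themselves. The added 32 draws them towards no change, most of all at low signals. Chip 430B, which carries Megf10 and Plet1os, was deposited on a scale 4.083 times lower than chip 430A, and signals of different probe sets are not compared. Between replicates the correlation r was 0.963 to 0.979 for chip 430A and 0.915 to 0.953 for chip 430B. Akt1 had 4 probe sets, and which of them lie in the part of Akt1 that the transgene holds is not known. The signal of 1 on chip 430A was 2614 to 6535 in the hearts with Akt on and 383 to 917 in the other 6. The other one on chip 430A gave 1619 to 1811 before AAC, 928 to 1587 at 4 weeks and 1201 to 1438 with Akt on, and both on chip 430B overlapped between the groups. The level therefore followed the labels of the Akt group in 1 of 4 probe sets. All 11 cardiomyocyte markers were past the filter, among them Myh6, Tnnt2 and Ryr2, and 9 of 10 skeletal muscle markers were below it. The summed signal of 10 atrial markers lay between 13102 and 106136 before AAC, between 15355 and 81957 at 4 weeks and between 16277 and 87389 with Akt on, with wide overlap of the groups. For β-actin the 3′ control over the 5′ control was 1.49 to 2.04 before AAC, 1.14 to 1.21 at 4 weeks and 1.04 to 1.22 with Akt on. This sign of RNA quality therefore separated the hearts before AAC from the other 6 and did not separate the later groups from each other, and its part in the first difference of each gene was not tested. In whole heart tissue, fewer cells of a type and less RNA per cell cannot be told apart.

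In all 6 genes the 3 hearts at 4 weeks lay on one side of the other 6 hearts, above them in Slc25a13, Bex1 and Plet1os and below them in Opn3, Megf10 and Cyp2c38. Over all genes tested, 923 of 12835 (7.19%) had this arrangement, 3.02% with the 4-week hearts above and 4.18% with them below. The genes were picked for it, so nothing is read from their count. They differ in where the hearts with Akt on came to lie. In Slc25a13, Megf10 and Cyp2c38 these hearts overlapped with those before AAC, while in Opn3, Bex1 and Plet1os they lay beyond them, on the side away from the 4-week hearts, an arrangement found in 0.982% of all genes.

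**Figure D1:**
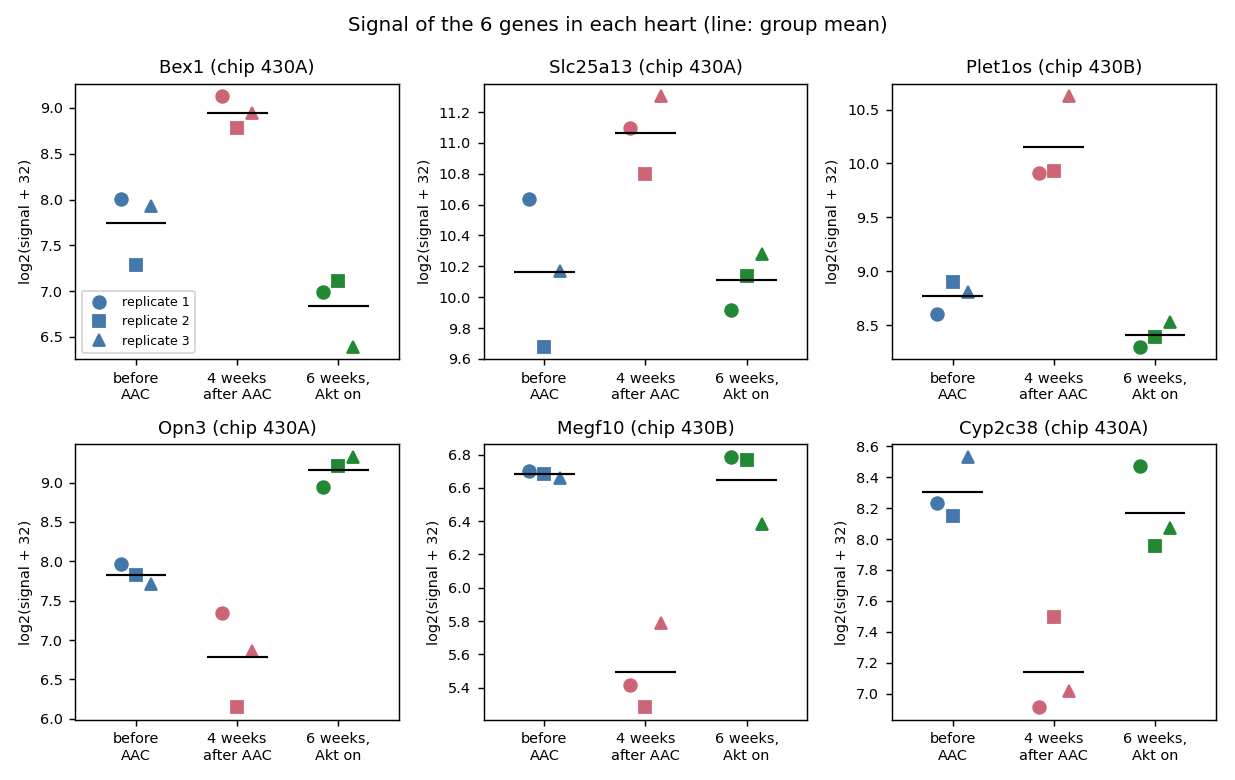
Signal of the 6 genes in each of 9 hearts as log2(signal + 32) on the vertical axis, by group on the horizontal axis, with a symbol for each replicate number and a line at the group mean. The upper genes (Bex1, Slc25a13, Plet1os) have their 3 hearts at 4 weeks above the other 6, and the lower genes (Opn3, Megf10, Cyp2c38) have them below.

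Slc25a13, the mitochondrial aspartate and glutamate carrier, was higher at 4 weeks and back at its first level with Akt on. Its signals were 1560.3, 789 and 1122 in replicates 1, 2 and 3 before AAC, 2160.2, 1746 and 2494 at 4 weeks, and 934, 1096 and 1211 with Akt on. The 4-week hearts were all above the rest, although the lowest of them exceeded before-AAC replicate 1 by little, and the other groups overlapped. The group means on the log2 scale were 10.16 ± 0.48, 11.07 ± 0.25 and 10.11 ± 0.18 (SD, n = 3). The difference of 4 weeks from before AAC was 0.90 (1.87-fold, SE 0.22) and that of Akt on from 4 weeks was −0.95 (1.94-fold lower). With Akt on the level differed from that before AAC by −0.05.

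Cyp2c38, the cytochrome P450, was lower at 4 weeks and near its first level with Akt on. It gave 269, 252 and 338 before AAC, 88.4, 148 and 97.7 at 4 weeks, and 323, 216 and 237 with Akt on. The highest 4-week heart, replicate 2, stayed below each of the other 6, and the hearts before AAC and with Akt on overlapped. The log2 means were 8.30 ± 0.20, 7.14 ± 0.31 and 8.17 ± 0.27 (SD, n = 3). The first difference was −1.16 (2.24-fold lower, SE 0.21), the second 1.02 (2.03-fold higher), and Akt on differed from before AAC by −0.14. The Cyp2c genes are close copies of each other, and how far this probe set also reads its relatives was not tested. The summed signal of 9 hepatocyte markers, the cell type best known for Cyp2c genes, was 846 to 1009 before AAC, 456 to 820 at 4 weeks and 651 to 1172 with Akt on. It was thus lower at 4 weeks without overlap against before AAC and overlapped between the later groups. Of these 9 markers 7, including Ttr and Apoa1, were below the filter, neither of the 2 tested passed in any comparison, and their part in the result was not tested.

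Opn3, the extraocular opsin, had the widest swing of the 6 on the log2 scale. Its signals were 217, 195 and 177 before AAC, 131, 38.8 and 84.6 at 4 weeks, and 462, 559 and 610 with Akt on. The 3 groups did not overlap: 4 weeks was lowest, before AAC in the middle and Akt on highest. The 4-week hearts were the least alike, with 4-week replicate 2 well under the other 2. The log2 means were 7.83 ± 0.13, 6.79 ± 0.60 and 9.16 ± 0.19 (SD, n = 3). The differences were −1.05 (2.06-fold lower, SE 0.26) at 4 weeks and 2.38 (5.19-fold higher) from 4 weeks to Akt on. With Akt on Opn3 was 2.51-fold above the hearts before AAC on that scale (log2 1.33). Its mean signals were 196 before AAC, 84.7 at 4 weeks and 544 with Akt on.

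Megf10, the engulfment receptor, was lower at 4 weeks and at its first level with Akt on. Its signals on chip 430B were 72, 70.6 and 69.2 before AAC, 10.7, 6.93 and 23.3 at 4 weeks, and 78.3, 77 and 51.5 with Akt on. The hearts before AAC were almost equal, those at 4 weeks were all below the pseudocount of 32, and Akt-on replicate 3 was the lowest of its group. The log2 means were 6.68 ± 0.02, 5.50 ± 0.26 and 6.65 ± 0.23 (SD, n = 3), with differences of −1.18 (SE 0.27), 1.15 and −0.04. The size of the first 2 rests on the pseudocount: with 16 they were −1.59 and 1.54, with 64 −0.80 and 0.77, and with chip 430B brought to the scale of chip 430A −1.94 and 1.89. The summed signal of 8 satellite cell markers was 1959 to 2125 before AAC, 1589 to 2019 at 4 weeks and 2089 to 2498 with Akt on. It overlapped between the first groups and not between the later ones. The defining Pax7 and Myf5 were among 5 of the 8 that lay below the filter. Of the 3 tested, Itga7, an integrin of muscle, rose with Akt on (log2 0.59, adjusted p = 0.019 by limma against 4 weeks). Sdc4 (−0.30, adjusted p = 0.546) and Vcam1 (0.02, adjusted p = 0.935) did not pass in that comparison by limma. The part of these cells in the result was not tested.

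Bex1, the neuronal adaptor, was higher at 4 weeks and lowest with Akt on. It gave 224, 124 and 213 before AAC, 528, 407 and 460.2 at 4 weeks, and 95.6, 106 and 52.2 with Akt on. All 3 groups were apart, with before-AAC replicate 2 the nearest to the hearts with Akt on. The log2 means were 7.74 ± 0.39, 8.95 ± 0.18 and 6.83 ± 0.38 (SD, n = 3). The differences were 1.21 (2.31-fold higher, SE 0.24) at 4 weeks, −2.12 (4.34-fold lower) from 4 weeks to Akt on, and −0.91 (1.88-fold lower) from before AAC to Akt on. The summed signal of 12 Schwann cell and neuron markers was 2356 to 2591 before AAC, 2138 to 2766 at 4 weeks and 2127 to 2474 with Akt on. These ranges overlapped in each comparison. Of the 8 markers tested 0 passed in any comparison by limma, with 3, 4 and 0 at an unadjusted p under 0.05, and Ngfr, S100b, Gap43 and Snap25 were below the filter.

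Plet1os, the non-coding RNA, was the most raised of the 6 at 4 weeks. Its signals on chip 430B were 358, 447 and 417 before AAC, 931, 945 and 1546 at 4 weeks, and 284, 304 and 338 with Akt on. The 3 groups were apart, although Akt-on replicate 3 came close to before-AAC replicate 1, and 4-week replicate 3 stood above its group. The log2 means were 8.77 ± 0.15, 10.16 ± 0.41 and 8.41 ± 0.11 (SD, n = 3). The differences were 1.38 (2.61-fold higher, SE 0.19), −1.75 (3.36-fold lower) and −0.37. The summed signal of 9 epithelial markers, among them the keratins Krt8 and Krt18, overlapped between the groups: 1165 to 1581 before AAC, 752 to 1689 at 4 weeks and 991 to 1559 with Akt on. Of the 5 epithelial markers tested 0 passed in any comparison by limma, with 0, 1 and 0 at an unadjusted p under 0.05.

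Set against the size of the first difference, the second took back 227% of it in Opn3, 175% in Bex1, 126% in Plet1os, 106% in Slc25a13, 97% in Megf10 and 88.1% in Cyp2c38. Both differences use the same 4-week hearts, so a chance deviation of those hearts enters both with opposite sign. Over all genes, 661 of 12835 (5.15%) were called between before AAC and 4 weeks, 2.73% higher and 2.42% lower at 4 weeks, where called means an adjusted p under 0.05. Between 4 weeks and Akt on 557 (4.34%) were called, 1.85% higher and 2.49% lower with Akt on, and between before AAC and Akt on 15.1%, 7.32% higher and 7.79% lower. The 661 became 29 to 101 without any single heart before AAC or without replicate 1 or 2 of the 4-week hearts. The 557 became 357 without before-AAC replicate 3, 300 without 4-week replicate 2, 205 without 4-week replicate 3 and 281 without Akt-on replicate 2. In all, 40 genes (0.312%) were called in both with opposite directions, of which 22 were higher and 18 lower at 4 weeks. The 6 genes were picked from that pattern, so nothing is read from their being among the 40. Against this, 7 genes (0.0545%) were called in both in the same direction. The count of 40 dropped to between 4 and 9 when any of the hearts named for the 661 was left out. It was 21 without 4-week replicate 3 and 23 without Akt-on replicate 2.

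Ranked by the smaller of both sizes, the first 10 of these 40 genes were the 6 genes and 4 others, which are likewise described without a test because the calls chose them. Acox2, a peroxisomal oxidase of branched fatty acids and bile acid precursors, had log2 differences of −1.30 and 1.24. Cdk1, the kinase that drives cells into mitosis, had −1.14 and 1.71, and Mrpl20, a protein of the mitochondrial ribosome, −1.18 and 0.98. Ifit1bl1, a relative of the interferon-induced Ifit genes, had 1.04 and −1.76.

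**Figure D2:**
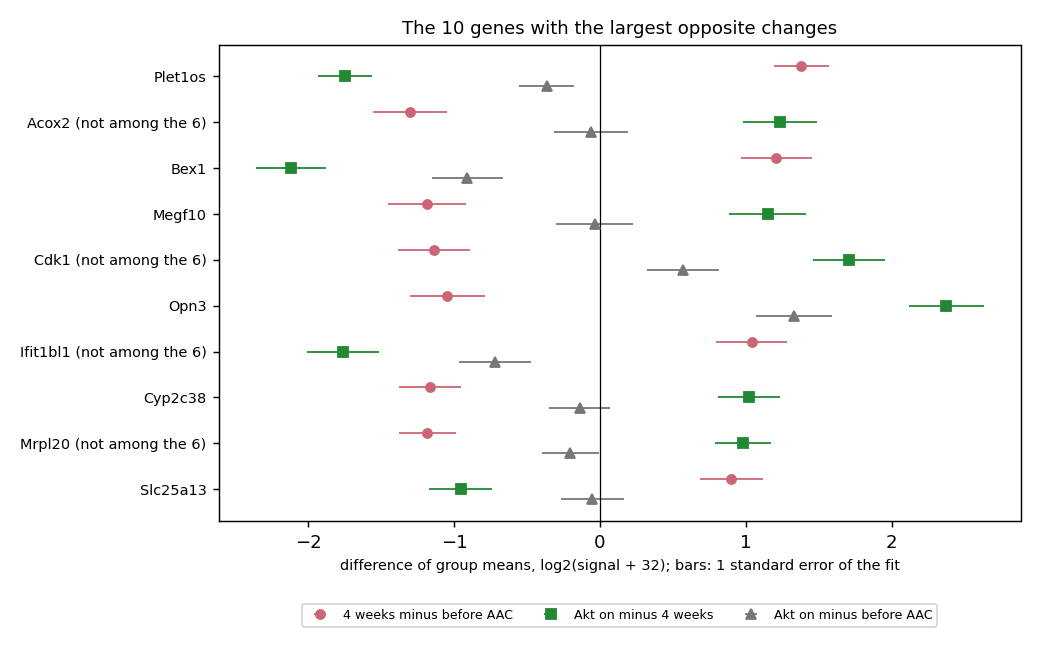
Differences of group means on the log2(signal + 32) scale (horizontal axis, with 1 standard error of the fit) for the 10 genes with the largest opposite changes, 6 described here and 4 others. The first and second difference of each gene lie on opposite sides of 0, and the third lies nearest to 0 in Megf10 (−0.04) and farthest in Opn3 (1.33).

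Among the 6 genes the hearts of a group did not keep a common order. With the group means taken out, the correlation over 9 hearts of a pair of these genes ran from −0.83 (Opn3 with Cyp2c38) to 0.49 (Megf10 with Plet1os) over 15 pairs. The points share their arrays, and the values are a description only. By Pearson correlation over the 9 hearts, group differences included, the genes most like Slc25a13 were Gtf2a1 (0.951), Maip1 (0.939) and Isca1 (0.925). Those most like Cyp2c38 were Gp1bb (0.957), Syt7 (0.948) and Raver1 (0.946). Opn3 was most like Itga7 (0.960), Brf2 (0.959) and Wfdc18 (0.948), and Megf10 most like Gdap2 (0.968), Reep5 (0.965) and D17H6S56E-5 (0.963). For Bex1 they were Gabarap (0.980), Neurl2 (0.959) and Ptprm (0.959), and for Plet1os Syncrip (0.987), Atf2 (0.970) and Slc16a1 (0.959). These are the highest of 12834 correlations each.

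The neighbours in the genome were not used to pick the genes and were tested. On each side the nearest gene with a tested probe set was taken from RefSeq positions, 12 neighbours in all. Only Chml and Plet1 were directly next to their gene, with 0 genes between. For the others the starts lay 31.1 kb (Tceal9) to 970.5 kb (Gm11149) away, with 1 to 11 untested genes between. By limma 0 of 12 were called in any of the 3 comparisons, with 0, 2 and 1 at an unadjusted p under 0.05. Plet1, whose span overlaps that of Plet1os on the opposite strand and which encodes a surface protein of epithelial progenitors, had differences of 0.55 (SE 0.39, adjusted p = 0.422 by limma) and −0.24 (adjusted p = 0.786). Both signs were those of Plet1os, at less than the spread between replicates. From before AAC to Akt on the signs differed, with 0.31 in Plet1 (adjusted p = 0.647 by limma) and −0.37 in Plet1os. Chml, a Rab escort protein gene whose span overlaps that of Opn3, had −0.17 and −0.21 (adjusted p = 0.702 and 0.663 by limma), and Fh1, the fumarase on the other side of Opn3, −0.05 and −0.18 (adjusted p = 0.827 and 0.377 by limma). The Bex1 neighbours Tceal8 and Tceal9, of a related X-linked family, had first differences of 0.01 and −0.02 and second ones of 0.03 and 0.27, none called. Beside Cyp2c38, its relative Cyp2c68 had −0.34 and 0.24 and the helicase gene Hells −0.03 and 0.11. Pdk4, a kinase that inhibits pyruvate dehydrogenase and the neighbour of Slc25a13 on one side, had −0.17 and 0.93 (adjusted p = 0.116 by limma for the second), and Sem1 on the other side 0.04 and −0.09. The neighbours of Megf10 were Prrc1 (−0.26 and 0.37) and C330018D20Rik (0.45 and 0.03), and Gm11149 beside Plet1os had 0.16 and 0.04.

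**Figure D3:**
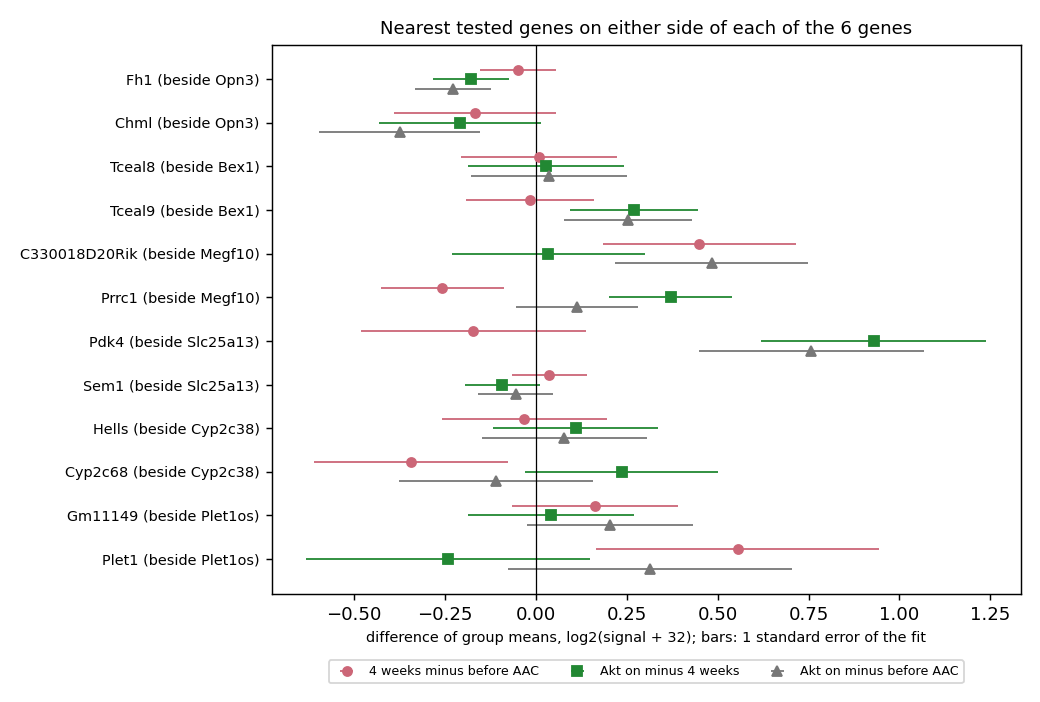
Differences of group means on the log2(signal + 32) scale (horizontal axis, with 1 standard error of the fit) for the nearest tested gene on each side of each of the 6 genes. The first differences run from −0.34 (Cyp2c68) to 0.55 (Plet1) and the second from −0.24 (Plet1) to 0.93 (Pdk4), and none was called.

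Genes that work with the 6, or are their relatives, were followed in 9 lists with 230 genes, of which 153 were tested. Between before AAC and 4 weeks 11 of 153 were called (7.19%), 3 higher and 8 lower, where 5.15% of all genes were. Between 4 weeks and Akt on 5 of 153 (3.27%) were called, 2 higher and 3 lower, where 4.34% of all genes were. Between before AAC and Akt on 27 of 153 (17.6%) were called, 6 higher and 21 lower, where 15.1% of all genes were. With both directions counted, these shares are near those of all genes, but the split by direction was less even. At 4 weeks 8 related genes were lower and 3 higher, where 2.42% of all genes were lower and 2.73% higher. From before AAC to Akt on 21 were lower and 6 higher, where 7.79% of all genes were lower and 7.32% higher. From 4 weeks to Akt on the split was 3 and 2, beside 2.49% and 1.85% of all genes. The difference in split was not tested. The only related gene called in opposite directions in the first pair of comparisons was Ucp3, an uncoupling protein of muscle mitochondria, with −0.85 and 0.71. Of the 11 calls at 4 weeks, 1 or 0 were kept when a heart before AAC, or replicate 1 or 2 at 4 weeks, was left out, and 6 without 4-week replicate 3. Of the 5 calls between 4 weeks and Akt on, 1 to 3 were kept without each heart in turn, and Ptgds was kept in all 9 of these fits. Of the 27 calls between before AAC and Akt on, 16 or 17 were kept without before-AAC replicate 1, 2 or 3 or Akt-on replicate 3.

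Around Slc25a13, the malate-aspartate shuttle moves reducing equivalents from the cytosol into mitochondria. Of 14 tested genes of this shuttle, the glycerophosphate shuttle and the urea cycle, 3 fell at 4 weeks and 11 did not pass. These were the glutamate carrier Slc25a22 (log2 −1.09, adjusted p = 0.0167 by limma), the aspartate aminotransferase Got2 (−0.61, adjusted p = 0.02) and the malate dehydrogenase Mdh2 (−0.37, adjusted p = 0.0342). The list median was −0.08, against −0.04 for all genes, and its sign turned under quantile scaling (0.07), where 1 rose and 1 fell. With Akt on against 4 weeks 0 of 14 were called by limma, with 3 at an unadjusted p under 0.05 and a median of 0.07. Against before AAC Got2 (−0.70) and Mdh2 (−0.30) were the 2 that fell, with a list median of −0.23 that turned to 0.04 under quantile scaling, where 1 fell. Slc25a12, the other aspartate and glutamate carrier and the form that prevails in heart, did not pass (0.29, SE 0.13, adjusted p = 0.201 by limma, and 0.07, adjusted p = 0.826).

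Of 34 other mitochondrial carriers and carrier-like genes, 3 rose and 3 fell at 4 weeks, with a median of −0.16. Slc25a46 (0.81), Mtch2 (0.68) and Slc25a26 (0.58), a carrier of S-adenosylmethionine, rose, and Ucp3 (−0.85), Slc25a45 (−0.80) and the phosphate carrier Slc25a3 (−0.37) fell. Under quantile scaling 2 rose and 2 fell at 4 weeks, with a median of −0.04. Between 4 weeks and Akt on the carnitine-acylcarnitine carrier Slc25a20 (0.79) and Ucp3 (0.71) rose, Slc25a33 (−0.76) and Slc25a36 (−0.51), carriers of pyrimidine nucleotides, fell, and the median was 0.12. Against before AAC 3 rose and 3 fell, with a median of −0.03 that turned to 0.03 under quantile scaling. Slc25a17 (1.00), Slc25a20 (0.62) and Slc25a46 (0.47) rose, and Slc25a34 (−1.35), Slc25a33 (−1.01) and Slc25a29 (−0.51) fell.

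Around Cyp2c38, 39 of 47 genes of arachidonic acid metabolism were on the arrays and 18 passed the filter and were tested. None of the 18 was called at 4 weeks by limma, with 2 at an unadjusted p under 0.05 and a median of −0.23. With Akt on 1 fell and 17 did not pass against 4 weeks. This was Ptgds, a prostaglandin D synthase, with −1.70 (adjusted p = 0.00257 by limma). The median of 0.04 turned to −0.01 under quantile scaling. Ptgds (−1.60) and the electron donor Cyb5a (−0.89) were the 2 that fell between before AAC and Akt on.

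Around Opn3, 18 of 30 opsins, arrestins, G proteins and their regulators were tested. None was called at 4 weeks by limma, with 9 at an unadjusted p under 0.05 and a median of −0.30, nor from 4 weeks to Akt on, with 5 at an unadjusted p under 0.05 and a median of −0.07. Between before AAC and Akt on 6 fell and 1 rose, with a median of −0.37, where 7.79% of all genes fell and 7.32% rose. In that comparison 6 of 10 endothelial and 5 of 11 cardiomyocyte markers also fell, the latter 0 under quantile scaling, and their part in this result was not tested. Those with the smallest p were the adenylyl cyclase Adcy6 (−1.01), Rgs4 (−0.95), a regulator that shuts off G proteins, and the receptor kinase Grk5, which rose (0.70). Opn4, melanopsin, did not pass (−0.52, SE 0.18, adjusted p = 0.112 by limma, and 0.04, adjusted p = 0.933).

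Around Megf10, 29 of 32 engulfment receptors, bridging proteins and adaptors were tested. Calreticulin (Calr, −0.58), which also folds proteins in the endoplasmic reticulum, was the 1 that fell at 4 weeks (median −0.14). From 4 weeks to Akt on 0 of 29 were called by limma, with 0 at an unadjusted p under 0.05, and the median of 0.01 turned to −0.02 under quantile scaling. Against before AAC Calr (−0.48), Pear1 (−0.76) and Abca7 (−0.63) fell. Megf11, the closest relative of Megf10, had differences of 0.05 and 0.03 (adjusted p = 0.945 and 0.963 by limma). Of 13 tested genes of the Notch pathway and the myogenic factors, the receptor Notch1 (−0.71) was the 1 that fell at 4 weeks, with a median of −0.23. From 4 weeks to Akt on 0 were called by limma, with 2 at an unadjusted p under 0.05 and a median of −0.13. Between before AAC and Akt on 4 fell and 0 rose, where 7.79% of all genes fell and 7.32% rose. The 4 were Notch1 (−0.84), Notch3 (−0.61), Notch4 (−0.63) and the Notch target Hey1 (−0.78). The endothelial markers, of which 6 of 10 fell in that comparison, had summed signals without overlap, and their part in the fall of these Notch genes was not tested.

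Around Bex1, 7 of 18 genes of the Bex and Tceal family and of p75 signalling were tested. By limma 0 were called in the first and in the second comparison, with 0 and 1 at an unadjusted p under 0.05 and medians of −0.02 and 0.09. Maged1, a partner of the p75 receptor, was the 1 that rose between before AAC and Akt on (0.62). Bex3 did not pass (−0.50, SE 0.55, adjusted p = 0.626 by limma, and 0.09, adjusted p = 0.95). Of 14 tested genes for inflammatory mRNAs with AU-rich elements and the proteins that bind them, 0 were called at 4 weeks or from 4 weeks to Akt on by limma, with 4 and 2 at an unadjusted p under 0.05 and medians of −0.07 and −0.08. Nfkbia, the inhibitor of NF-κB, fell between before AAC and Akt on (−0.78). Around Plet1os, 6 of 11 genes of trophoblast and hair follicle progenitors were tested. By limma 0 were called at 4 weeks and 0 from 4 weeks to Akt on, with 1 and 1 at an unadjusted p under 0.05 and medians of 0.08 and 0.35, and Lrig1, a brake on growth factor receptors, rose between before AAC and Akt on (1.11).

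Of the other marker lists, 3 of 11 cardiomyocyte markers fell at 4 weeks, with a median of −0.34 that turned to 0.06 under quantile scaling, where 0 were called. With Akt on against before AAC 5 of the 11 fell, where under quantile scaling 0 fell and 1 rose. Of 10 endothelial markers 2 fell at 4 weeks and 6 between before AAC and Akt on, and their summed signal was 16506 to 17345 before AAC, 11396 to 13423 at 4 weeks and 10302 to 11543 with Akt on. Of 9 fibroblast markers 4 rose from 4 weeks to Akt on, and their summed signal was 37797 to 43800.4, 28578 to 46301 and 42518 to 66323 in the 3 groups. By limma 0 of 10 atrial, 0 of 9 macrophage and 0 of 3 adipocyte markers were called at 4 weeks or from 4 weeks to Akt on. At an unadjusted p under 0.05 there were 0, 1 and 0 of them in the first and 2, 0 and 1 in the second comparison. The 1 skeletal muscle marker tested, Ckm, which heart muscle also makes, did not pass in either.

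**Figure D4:**
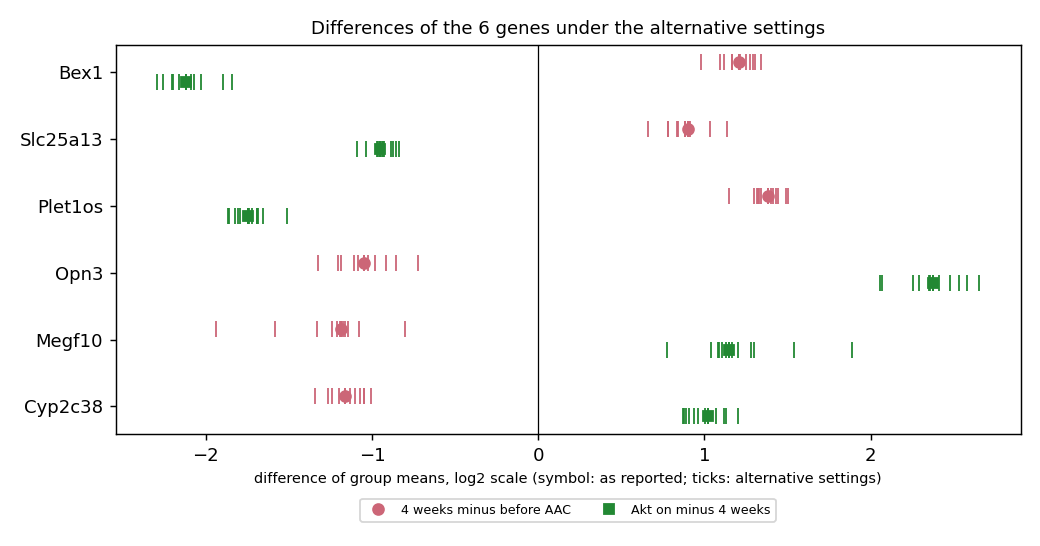
First and second difference of each of the 6 genes on the log2 scale (horizontal axis), as reported (symbol) and under each alternative setting (tick marks), including the fits without 1 heart. The ticks spread most in Megf10, from −1.94 to −0.80 for the first difference, and settings that alter only the variance model or a group outside the comparison leave a difference where it was.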

How the data were processed

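Total RNA from heart tissue was labelled with biotin and hybridized to Affymetrix chips 430A and 430B, 18 arrays from 9 hearts. Per the submitters' processing notes, the authors made the values with MAS5, whose version is not given in the sources used here. The deposited unit is signal intensity, and the values of a chip's arrays have nearly the same trimmed mean (2% off each end).

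Arrays of a chip were rescaled to a common trimmed mean, which hardly moved the values, and log2(signal + 32) was taken. Of 45265 probe sets, 128 controls were left out, and on each chip the 60% of the rest with the highest mean signal were kept. Probe sets with several symbols (936 before this filter) or with none (9160) were then left out. Of the remainder 1 probe set per gene was tested, with chip 430A preferred and otherwise the brightest. This gave 8266 genes of chip 430A and 4569 of chip 430B. Symbols came from the platform annotation, and 12744 of 12835 genes matched RefSeq by gene ID. In R 4.3.3 with limma 3.58.1 each chip had its own model of 3 group means (lmFit and eBayes, variance trend on), and two-sided p-values were adjusted by Benjamini-Hochberg over both chips. The test was checked on simulated data with independent normal errors for each probe set. Such data lack differences between hearts that many genes share, so the check does not cover those. The number of arrays limits the precision, and the median SE of a difference was 0.185.

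The 6 genes and all lists were chosen with earlier results of these data known. Named beside the 6 were up to 3 genes with the smallest p of each related list and comparison, the closest relatives, the nearest tested neighbours, the 3 genes of highest correlation with each (no clone, Gm or Rik names) and the 10 largest opposite changes. Marker genes, and further called genes of a list with few calls, were named after their values were seen. The alternatives covered scaling, the pseudocount, the filter, the variance model, the samples in the fit, a replicate block, the atrial score and leaving out each heart. Promoter sequences are from RefSeq, and that of Megf10 was not used here.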

Additional observations from a re-analysis of the deposited data

How the results depend on the processing

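The directions of the 6 genes were fixed by their choice, and several alternatives (the variance trend, the replicate block, a heart outside the comparison) cannot move a difference, so only sizes are given. The differences of Megf10 moved by more than the spread between replicates with a pseudocount of 16 (−1.585 and 1.54), of 64 (−0.7995 and 0.7749), and after chip 430B had been scaled up to match chip 430A (−1.941 and 1.89). Keeping 40% of the probe sets left Opn3, Bex1, Megf10 and Cyp2c38 untested.

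Between before AAC and 4 weeks, the 661 calls became 436 without a filter and 346 with 4-week replicates 1 and 3 averaged, and 29 to 918 without each heart in turn. Between 4 weeks and Akt on, the 557 became 213 with only the groups compared in the fit and 323 with that averaging, and 205 to 482 without each heart. Between before AAC and Akt on, the 1940 became 991 to 2142 without each heart, with before-AAC replicates 1, 2 and 3 (1237, 1185 and 991) and Akt-on replicates 2 and 3 (1289 and 1174) moving it most. The 40 opposite calls became 26 with quantile scaling, 26 without the variance trend, 22 with only the groups compared, 15 with the averaging, and 4 to 40 without each heart. All 6 genes were among them with a pseudocount of 16 or 64, 4 with quantile scaling and 3 with the averaging. Without before-AAC replicate 3 only Plet1os was. Nothing is read from these counts, since the genes were picked for the pattern. The related genes called numbered 18 with only the groups compared, 6 with the averaging and 0 to 15 without each heart in the first comparison, where the fits with 0 by limma had 40 and 43 at an unadjusted p under 0.05. In the second comparison they numbered 2 without a filter, 2 without the trend, 1 with only the groups compared, 2 with the averaging and 2 to 4 without each heart. In the last they numbered 16 to 29 without each heart.

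Hearts of the same replicate number did not deviate together (r −0.281 to 0.185 over 18 pairs, 2 of them over 0.1). The main fit did not pair samples by number. These correlations cannot settle whether the numbers pair the samples, because other differences between hearts, such as atrial content, enter them too. With the replicate block the first comparison had 280 calls, the opposite calls were 20, and the related genes called at 4 weeks were 6. Signals below the pseudocount at 4 weeks limit Megf10 most, and the number of calls rests on 3 hearts a group.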
